A study of Oryza sativa with 26 samples.

Results

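A small group of rice anther transcripts was high in early meiotic prophase and again in mature pollen anthers, and low before and between. It holds 16 of the 57194 probe sets analysed, or 0.028%. Their level was low up to the premeiotic stage, high in leptotene (M1) and in zygotene and pachytene (M2), low from diplotene to bicellular pollen, and high again in anthers with mature pollen (P3). Each array value is an intensity divided by that array's 75th percentile, so a value of 1 is the 75th percentile of the array. Members were chosen from log2(value + 1), averaged within each stage. The lowest of the M1, M2 and P3 means had to lie at least 1 log2 unit above the highest of the other 5 means. That difference is called the margin below. The difference between the high and the low stages was therefore used to choose the members, and it is described here without a test.

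The series holds 26 Affymetrix Rice Genome Arrays of anthers from field-grown rice, with no genotype, cultivar or treatment given in the labels. The 5 low stages are An1, in which archesporial cells form (3 arrays), Mei1, with pollen mother cells before meiosis (3), M3, from diplotene to tetrads (4), P1, with uninucleate microspores (3), and P2, with bicellular pollen (3). The 3 high stages are M1 (4 arrays), M2 (3) and P3, with tricellular mature pollen (3). Arrays within a stage are titled as biological replicates, and whether each is 1 plant or a pool is not given. Each sample is a whole anther, so a lower value can mean fewer cells of a type or less RNA per cell, and these cannot be told apart.

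The largest named set among the members encodes JAZ proteins. JAZ proteins belong to the TIFY family. They bind MYC-type transcription factors and hold back the genes those factors would switch on. When jasmonate is perceived, JAZ proteins are degraded, and the same factors then also raise transcription of JAZ genes, so JAZ transcripts are widely used as a readout of jasmonate response. Jasmonate is known from rice and Arabidopsis for its part in pollen maturation and anther opening.

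Among the probe sets, 14 of 16 name 1 gene each, for 13 distinct genes. Of these genes 10 carry a name, and the other 3 have only a locus number. Of the remaining probe sets, 1 lists several genes (LOC107276358, LOC4347171 and LOC4332697) and 1 lists none. They are called the shared probe set and the unnamed probe set here. JAZ12 (LOC4348533, chromosome 10) had the widest margin, at 2.24 log2 units. It was followed by pinA (LOC9268662, chromosome 1) at 1.997 and RBBI3.3 (LOC9271230, chromosome 1), which encodes a Bowman-Birk type proteinase inhibitor, at 1.89. The salt-induced mannose-binding lectin gene salT (LOC4326471, chromosome 1) was chosen through both of its probe sets, with margins of 1.73 and 1.19. JAZ7 (LOC4343899, chromosome 7) had 1.67, JAZ11 (LOC4331833, chromosome 3) 1.56 and JAZ6 (LOC4333065, chromosome 3) 1.11. The metallothionein gene MT1A (LOC4351213, chromosome 11) had 1.22. The calmodulin-like gene CML27 (LOC4332731, chromosome 3) had 1.14, and the NAC transcription factor gene NAC4 (LOC4327485, chromosome 1) had 1.09. Membership depended on how the arrays were scaled. With array medians aligned or with scaling on control probe sets the rule kept 10 of the 16, and with quantile normalization 14. NAC4 and the shared probe set were lost under each of these scalings. NAC4 was also lost without P3 replicate 2 or without P3 replicate 3. JAZ7 was lost under control scaling, where its margin was 0.92, and kept under quantile normalization, where it was 1.02. JAZ genes of rice carry more than 1 numbering in the gene table, and LOC4348533 is also listed there as OsJAZ1 and TIFY11D.

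The members closest to the threshold were NAC4, LOC4332145 at 1.05 and the shared probe set at 1.01. Just outside it were LOC4333610 at 0.976, LOC4327132 at 0.974 and LOC4328509 at 0.972, so the threshold cuts through a continuous run of margins. The opposite pattern, low in M1, M2 and P3 by the same margin, was met by 0 probe sets.

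Over the 16 members, the median of the stage means was 3.99 log2 units in M1, 3.997 in M2 and 3.99 in P3. In the low stages it was 1.16 in An1, 1.38 in Mei1, 2.22 in M3, 1.14 in P1 and 1.49 in P2. The median over all probe sets lay between 0.333 and 0.480 at every stage. The highest stage was M2 for 9 members, P3 for 6 and M1 for 1. Among the low stages the level came nearest to the high ones in M3 for 7 members and in P2 for 5.

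**Figure D1:**
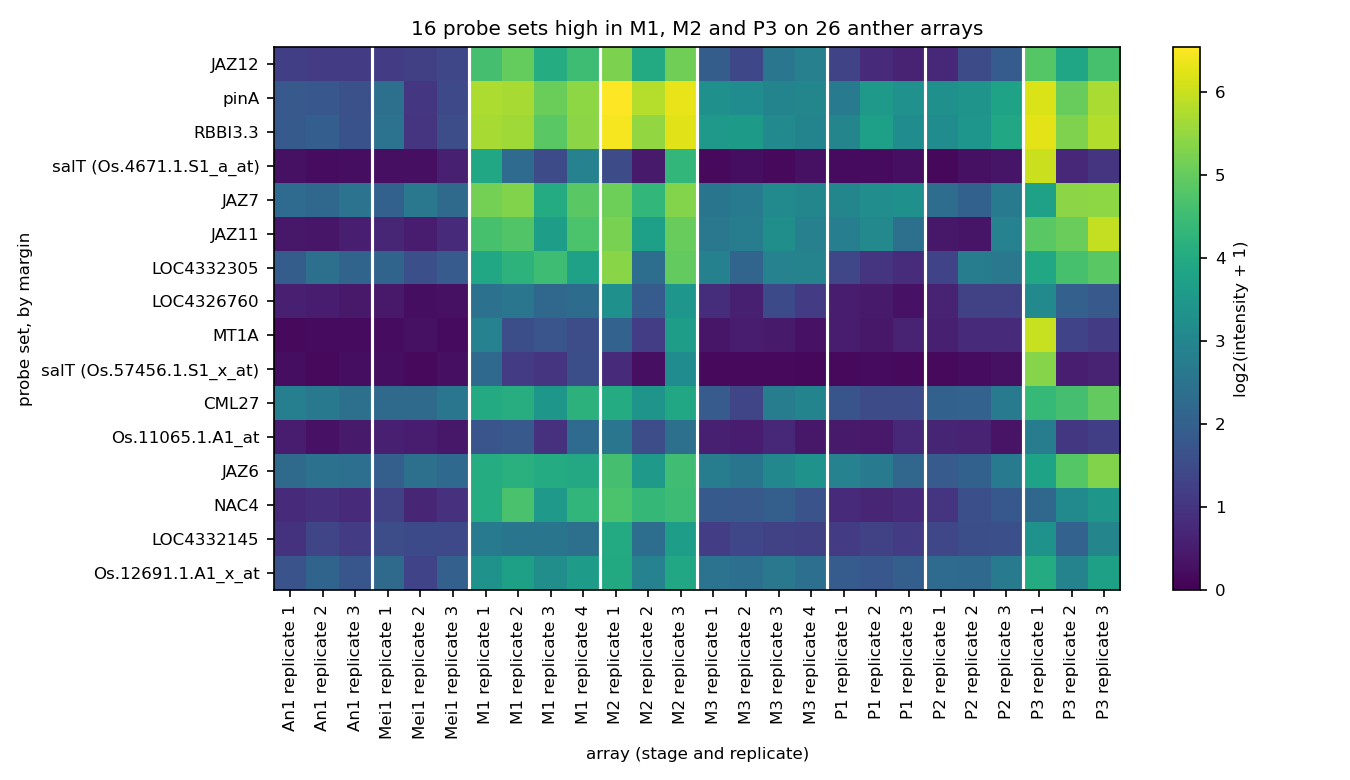
Heat map of the 16 probe sets (rows, ordered by margin) on the 26 arrays (columns, grouped by stage between white lines), with colour giving log2(intensity + 1). Rows are bright in M1, M2 and P3, and the column of M2 replicate 2 is darker than the other M2 columns, while salT and MT1A are bright in P3 replicate 1 alone among the P3 arrays.

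Values of each array separated completely for most members. For 13 of the 16, the lowest of the 10 arrays of M1, M2 and P3 lay above the highest of the other 16 arrays. Over all probe sets the same held for 112, or 0.196%, and since the rule used these values nothing is read from that difference. The exceptions were both salT probe sets and LOC4332305, and in each of these M2 replicate 2 was the lowest of the 10 arrays.

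Certain arrays stood apart from the others of their stage. M2 replicate 2 was below the mean of the other arrays of its stage for 16 of 16 members, with a median deviation of -1.11 log2 units, while the median deviation over all probe sets was -0.004. In P3 replicate 1, 10 members lay above both other P3 arrays, salT on both probe sets and MT1A by the most, and the other 6, JAZ7, JAZ6, NAC4, JAZ11, CML27 and LOC4332305, lay below both. These same arrays had the highest mean level of the 19 measured small heat shock protein genes, 3.41 log2 units in M2 replicate 2 and 3.42 in P3 replicate 1, against 0.950 to 1.997 on the other 24 arrays. Whether this has a part in the members' values was not tested, and results that rest on either array are given with and without it below. On a smaller scale, M1 replicate 3 was below the mean of the other M1 arrays for 15 members. The median deviation there was -0.64 for the members and 0.02 over all probe sets. P2 replicate 3 was above the other P2 arrays' mean for 15 members, with a median deviation of 0.49, against -0.02 over all probe sets.

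**Figure D2:**
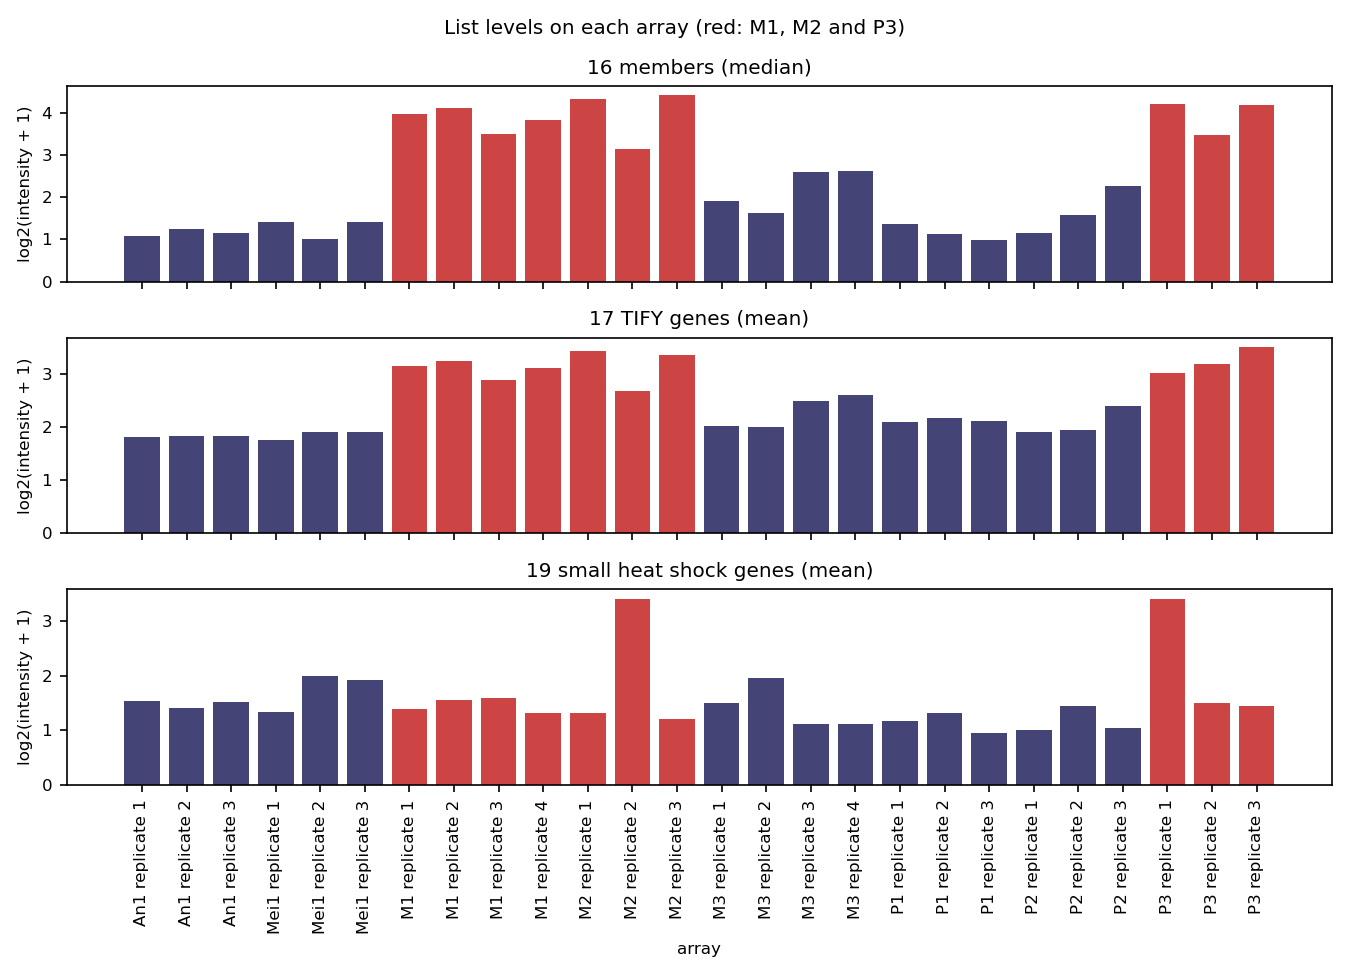
Bars give, for each of the 26 arrays, the median log2(intensity + 1) of the 16 members, the mean of 17 TIFY genes and the mean of 19 small heat shock genes, with arrays of M1, M2 and P3 in red and the others in blue. The members' bars are higher on all red arrays, M2 replicate 2 is the lowest red bar of the top panel, and the small heat shock bars reach 3.41 and 3.42 only on M2 replicate 2 and P3 replicate 1.

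JAZ12 is the member with the widest margin. Its intensity was 23.3, 30.7, 15.4 and 21.8 on the 4 M1 arrays, 37.1, 15.04 and 33.5 in M2, and 27.1, 13.2 and 24.0 in P3. On the M3 arrays it was 2.77, 1.69, 4.94 and 6.20, and on the 12 other low arrays it lay between 0.565 and 2.75. The lowest high array, P3 replicate 2, thus exceeded the highest low array, M3 replicate 4, and the median of the high arrays was 16.4 times that of the low ones.

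JAZ11 was near the bottom of the scale before meiosis. Its intensity lay between 0.320 and 0.451 in An1 and between 0.423 and 0.702 in Mei1, then was 23.7, 26.3, 11.4 and 24.9 in M1 and 36.4, 11.9 and 31.3 in M2. It did not return to the premeiotic level in M3, where it was 5.18, 5.71, 8.59 and 6.25, or in P1, where it was 5.96, 7.43 and 4.31. The P2 arrays split, with 0.350 and 0.298 in replicates 1 and 2 and 6.40 in replicate 3. In P3 it was 28.3, 32.0 and 59.97, and no P3, M1 or M2 array overlapped a low array.

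JAZ7 and JAZ6 had a higher floor. JAZ7 was 34.9, 38.1, 15.3 and 28.3 in M1, 32.9, 19.1 and 38.9 in M2, and 12.4, 40.9 and 42.1 in P3, against 3.10 to 8.68 on the 16 low arrays. JAZ6 was 15.6, 16.7, 15.1 and 14.3 in M1, 23.3, 10.7 and 22.2 in M2, and 12.8, 26.9 and 38.4 in P3, against 2.70 to 9.08 on the low arrays. Neither gene had an overlap, and for both the P3 arrays ranged more widely than those of M1, with P3 replicate 1 the lowest.

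The neighbouring genes pinA and RBBI3.3 ran in parallel over the arrays. They lie next to each other in the RefSeq gene order on chromosome 1. The intensity of pinA was 52.1, 50.4, 32.5 and 41.8 in M1, 91.9, 55.0 and 78.4 in M2, and 70.6, 31.1 and 50.8 in P3. That of RBBI3.3 was 50.4, 48.1, 28.1 and 41.5 in M1, 86.4, 43.8 and 75.4 in M2, and 75.5, 37.5 and 53.7 in P3. On the low arrays pinA lay between 1.03 and 12.8 and RBBI3.3 between 0.983 and 14.0, below every high array in both. The ratio of pinA to RBBI3.3 stayed between 0.737 and 1.25 over the 26 arrays, with a median of 0.965. The RBBI3.3 probe set is of the _s_at type, which by Affymetrix's naming can match more than 1 transcript, so its signal may include that of a near-identical neighbour. Those of JAZ6 and of JAZ10, a JAZ gene described below, are of the same type.

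Other genes measured at that locus did not meet the rule. LOC4326000, the gene just before pinA, had stage means of 1.00 log2 units in M1, 1.84 in M2 and 4.35 in P3. Its mean was 0.87 in P2, for a margin of 0.13. That P2 mean rested on replicate 3, with an intensity of 2.48 against 0.249 and 0.392 in replicates 1 and 2. LOC4325998, a little further before pinA, had 1.05 in M1 and 1.39 in M2 but 0.29 in P3.

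NAC4 encodes a NAC-domain transcription factor. Its intensity was 15.7, 24.3, 10.5 and 18.7 in M1 and 24.9, 19.5 and 21.5 in M2, and it was lower in P3, at 3.64, 7.62 and 9.98. On the M3 arrays it was 2.63, 2.56, 2.95 and 2.18, and on the remaining low arrays it lay between 0.636 and 2.49. All P3 arrays were below all M1 and M2 arrays, and all were above the highest low array.

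CML27, a calmodulin-like calcium sensor gene, was 14.99, 15.9, 10.05 and 17.3 in M1, 15.3, 9.39 and 13.9 in M2, and 19.8, 23.6 and 30.2 in P3. The low arrays lay between 1.59 and 6.78, and every P3 array was above every M1 and M2 array. A second probe set of the same gene had stage means of 0.17 to 0.69 log2 units and a margin of 0.04, so the probe sets of this gene disagree at a level near the bottom of the scale.

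salT and MT1A owed their place in P3 to 1 array. The intensity of salT, on its probe set with the wider margin, was 64.2 in P3 replicate 1 against 0.684 and 0.961 in the others. In M1 it was 14.2, 3.85, 1.80 and 6.45, and in M2 it was 1.85, 0.378 and 19.1, against 0.0977 to 0.495 on the low arrays. MT1A, a type 1 metallothionein gene, was 62.0 in P3 replicate 1 against 1.48 and 1.22 in the others, 6.40, 1.97, 2.32 and 1.93 in M1, and 3.19, 1.26 and 11.7 in M2. Its low arrays lay between 0.127 and 0.721, so without P3 replicate 1 its P3 arrays were still above them. The same held for both salT probe sets, the second at 0.458 and 0.557 against at most 0.217 on the low arrays.

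Without P3 replicate 1 the rule gave 11 probe sets, of which 10 were among the 16. Both salT probe sets, MT1A, LOC4326760, the unnamed probe set and the shared probe set were lost. The margin of salT became 0.49 and 0.36, that of MT1A 0.52, that of LOC4326760 0.85, that of the unnamed probe set 0.57 and that of the shared probe set 0.84. Leaving out M2 replicate 3, on which salT (19.1) and MT1A (11.7) were also high, gave 12 members, all among the 16. Both salT probe sets, MT1A and the shared probe set were lost there. MT1A, at 6.40 in M1 replicate 1, was also lost without that array, as was LOC4332145. Without M2 replicate 2 the same 16 probe sets met the rule.

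**Figure D3:**
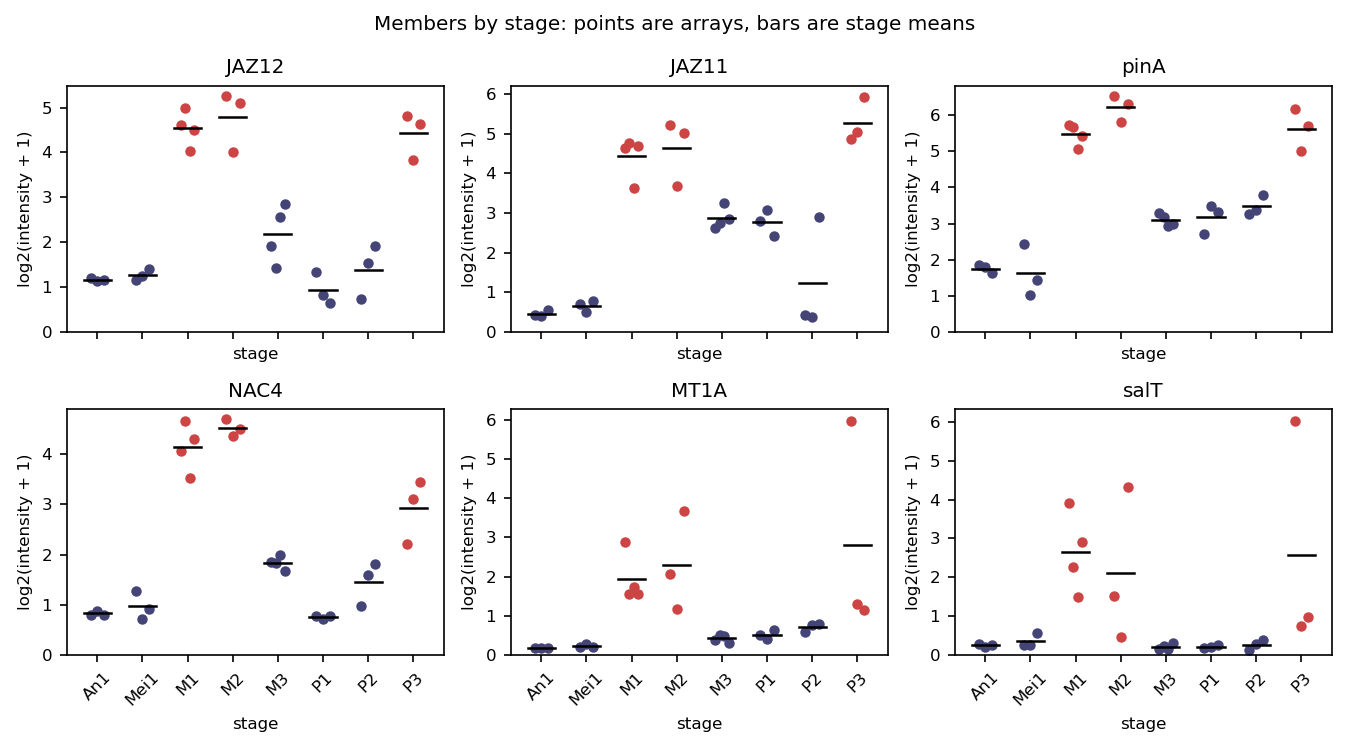
Points give log2(intensity + 1) of 6 members on each array by stage, red for M1, M2 and P3 and blue for the other stages, and bars give stage means. JAZ12, JAZ11, pinA and NAC4 have no red point below a blue one, while the P3 means of MT1A and salT rest on 1 point near 6.

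The members known only by a locus number or a probe set fell between these types. LOC4332305 (chromosome 3) ranged from 12.3 to 21.7 in M1 and from 14.0 to 28.1 in P3, but in M2 it was 40.9, 4.13 and 30.4, so that M2 replicate 2 fell inside the range of the low arrays, 0.774 to 6.65. LOC4326760 (chromosome 1) ranged from 2.51 to 9.78 on the high arrays and from 0.192 to 1.75 on the low ones. LOC4332145 (chromosome 3) ranged from 3.19 to 14.99 against 0.945 to 2.01. The unnamed probe set ranged from 0.921 to 5.87 against 0.237 to 0.684, and the shared probe set from 6.45 to 15.4 against 1.49 to 5.44. In these last 4 no high array overlapped a low one.

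By chromosome, 5 of the 13 genes lie on chromosome 1 and 5 on chromosome 3. Of the single genes named on the array 14.8% lie on chromosome 1 and 13.7% on chromosome 3. The pinA and RBBI3.3 genes are the only adjacent pair of members in the RefSeq order.

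The rule sets no order among M1, M2 and P3, so their differences were tested with limma. It does require all 3 to be high, so a probe set that is low in 1 of them could not be a member. This limits how many members can be called. Nothing is read from member counts that lie below the shares over all probe sets. A call needed a log2 difference of at least 1 and a p under 0.05 after Benjamini-Hochberg adjustment over all 47799 probe sets tested. All 16 members passed the filter on low values, and 1 of them, the second salT probe set, passed it only through the high stages. Between M1 and M2, 0 of 16 members were called, where 0.847% of all probe sets tested were (0.58% higher in M2 and 0.268% lower), and 3 members had an unadjusted limma p under 0.05. These 3 were LOC4332145 with an M2 minus M1 difference of 0.78 ± 0.27 (SE), pinA with 0.74 ± 0.29 and RBBI3.3 with 0.67 ± 0.31. With M2 replicate 2 included, the 95% intervals for JAZ12 (-0.45 to 0.96) and JAZ7 (-0.63 to 0.77) stayed within 1 log2 unit, while that for salT (-2.37 to 1.28) did not. Without M2 replicate 2, LOC4332145 (1.28) and LOC4332305 (1.09) were called higher in M2. The members' median difference was then 0.67, against 0.23 with all arrays, so these intervals depend on that array.

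Between M1 and P3, 1 of 16 members was called, where 12.8% of all probe sets tested were (6.73% higher in P3 and 6.04% lower). This was NAC4, which was lower in P3 by a log2 difference of -1.21 ± 0.25 (SE, limma adjusted p = 0.000234). Without P3 replicate 1, its lowest array there, the difference was -0.85 and under the threshold of 1. In the same fit JAZ6 was called higher in P3 (1.01) and salT lower (-1.78). CML27 was higher in P3 by 0.72 ± 0.29 (limma adjusted p = 0.0289), past the p threshold but not the size threshold. For JAZ12 the difference was -0.11 ± 0.34, with a 95% interval of -0.81 to 0.60, and for JAZ7 it was 0.01 ± 0.34, with an interval of -0.68 to 0.71. The small JAZ7 difference rested on P3 replicate 1. Without that array the P3 mean of JAZ7 was 5.41 log2 units, against 4.84 in M1. That of JAZ12 was 4.24, against 4.53 in M1, and neither gene was called.

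Between M2 and P3, 1 of 16 members was called, against 11.4% of all probe sets tested (6.29% higher in P3 and 5.08% lower). It was again NAC4, lower in P3 by -1.59 ± 0.26 (limma adjusted p = 4.03e-05), and -1.23 without P3 replicate 1. CML27 was higher in P3 by 0.89 ± 0.31 (limma adjusted p = 0.0192), and its difference passed the size threshold without M2 replicate 1 (1.02) or without P3 replicate 1 (1.02). Without P3 replicate 1, MT1A (-1.07) and the unnamed probe set (-1.04) were also called, and without M2 replicate 2, LOC4326760 (-1.04) and LOC4332145 (-1.05) were, all lower in P3. With both of these arrays left out 8 members were called, all lower in P3: NAC4, pinA, both salT probe sets, LOC4326760, MT1A, the unnamed probe set and LOC4332145. The P3 comparisons share their arrays with each other and are not separate evidence.

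**Figure D4:**
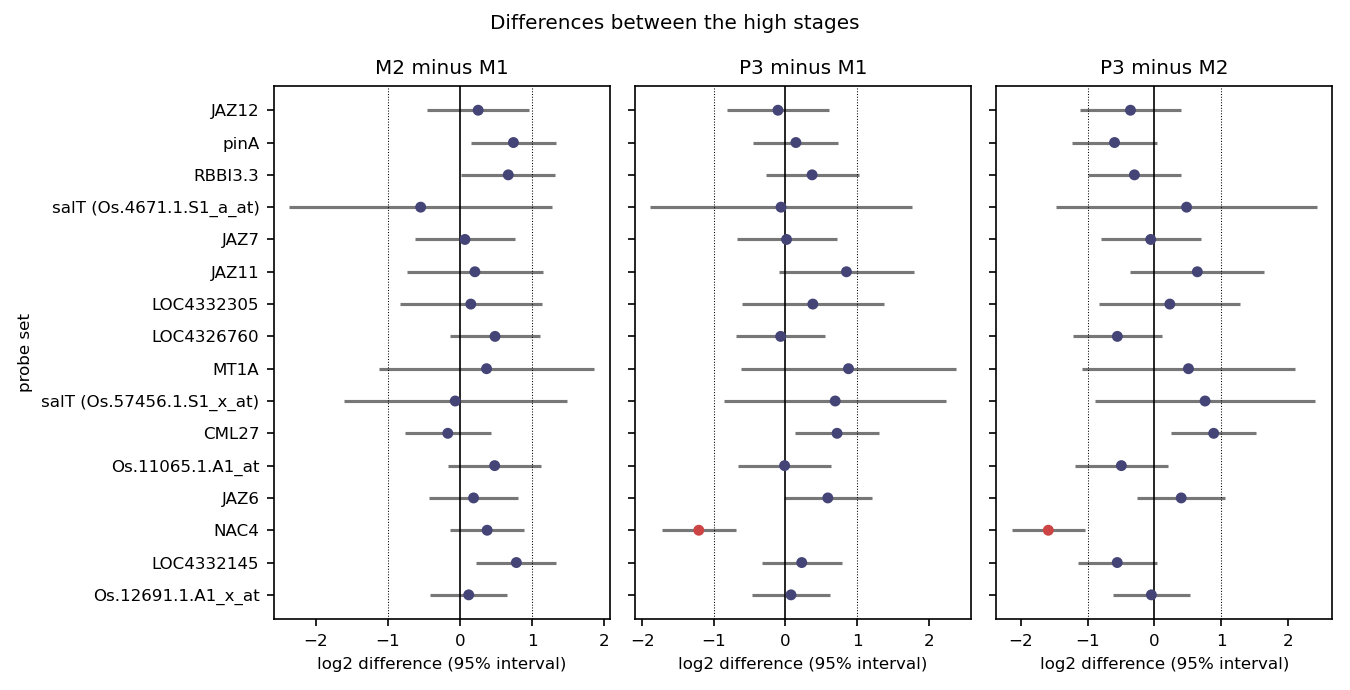
Points give the log2 difference of each of the 16 probe sets between pairs of high stages, lines the 95% interval from the limma fit, and dotted lines differences of 1. Only NAC4, in red, is called, and it is lower in P3 than in M1 (-1.21) and in M2 (-1.59), while the widest intervals are those of salT and MT1A.

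The rule also sets no order among the 5 low stages. A limma F test over An1, Mei1, M3, P1 and P2 called 5 of 16 members, where 13.8% of all probe sets tested were called at an adjusted p under 0.05 and stage means spanning at least 1 log2 unit. In these stages the members' medians were 1.14 to 2.22 log2 units, against 0.333 to 0.364 over all probe sets analysed. A span of 1 is harder to reach near the bottom of the scale, so nothing is read from the difference in shares. JAZ11 had the widest span, 2.42 log2 units (limma adjusted p = 9.44e-05), from a mean intensity of 0.37 ± 0.07 (SD, n = 3) in An1 to 6.43 ± 1.51 (SD, n = 4) in M3. pinA spanned 1.85 (limma adjusted p = 1.44e-05) and RBBI3.3 1.83 (limma adjusted p = 3.32e-05), and both were lowest in Mei1 and highest in P2. Since these neighbours ran in parallel and may share signal, their calls may not be separate. NAC4 spanned 1.09 (limma adjusted p = 0.00256), with P1 lowest and M3 highest.

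JAZ12 spanned 1.26 (limma adjusted p = 0.0273), with a mean of 3.90 ± 2.04 (SD, n = 4) in M3 against 0.94 ± 0.50 (SD, n = 3) in P1. Its call was lost without M3 replicate 3 (1.14), M3 replicate 4 (1.04), P1 replicate 2 (1.202) or P1 replicate 3 (1.12). JAZ7 (0.87, limma adjusted p = 0.161) and JAZ6 (0.72, limma adjusted p = 0.199) were not called. In M3 the JAZ12 arrays formed a lower pair, 2.77 and 1.69, and a higher pair, 4.94 and 6.20.

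The 4 JAZ members belong to a family of which 17 genes were measured here, 13 JAZ and 4 other TIFY genes. The list was set against the difference between the mean of M1, M2 and P3 and the mean of the other 5 stages, in which 1.47% of all probe sets tested were called higher and 0.454% lower by limma. Those shares cover all probe sets tested, many of which name no gene. The list genes are named, and each is taken at its probe set with the highest mean. The list counts and medians, here and below, are therefore not like for like with the values over all probe sets. On the list, 8 of 17 genes were called higher and 0 lower. The 4 members among them were chosen on this contrast. The other 4, out of 13, were JAZ10 (2.05 ± 0.28, SE), JAZ9 (1.90 ± 0.19), JAZ4 (1.82 ± 0.28) and JAZ8 (1.497 ± 0.17). The median difference over those 13 genes was 0.23, against 0.05 over all probe sets tested.

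None of these 4 other JAZ genes met the rule. JAZ9, the gene just before JAZ11 in RefSeq order, was 46.6, 72.2 and 62.7 in P2, within the range of the 36.8, 64.5 and 107 of P3. JAZ10, the gene just after JAZ11, was 14.0, 13.1 and 11.9 in An1, 11.9, 14.3 and 16.4 in Mei1 and 5.64, 4.07, 30.8 and 36.7 in M3, and 14.6, 19.6 and 21.9 in P3, so that 2 M3 arrays exceeded every P3 array. JAZ4 was 50.4, 146 and 201 in P3 but between 2.19 and 6.003 on the M1 and M2 arrays, and in P2 it was 26.4 in replicate 3 against 1.29 and 3.01. JAZ8 was between 3.21 and 14.7 on the M1 and M2 arrays and 4.06, 1.19 and 1.78 in P3, where 1 array overlapped the M2 range.

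JAZ13 was high in meiosis and low in P3. It was 26.4, 42.9, 30.6 and 30.2 in M1 and 52.7, 10.4 and 37.2 in M2, but 4.45, 1.25 and 1.33 in P3, where all arrays were lower than every An1 and Mei1 array. Between them it varied widely, at 2.97, 4.10, 15.4 and 19.7 in M3, 6.10, 14.4 and 36.4 in P1 and 31.2, 13.5 and 12.7 in P2, and 7 of these 10 arrays lay inside the M1 and M2 range. JAZ1 was high throughout, with 31.6 to 44.4 in An1 and Mei1 arrays pooled, 49.7 to 74.2 in M1 and M2, and 25.1 to 63.3 in P3. The other TIFY genes GATA17, GATA18, GATA20 and OsTIFY8, which carry the TIFY motif but are not JAZ repressors, had 0 calls.

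**Figure D5:**
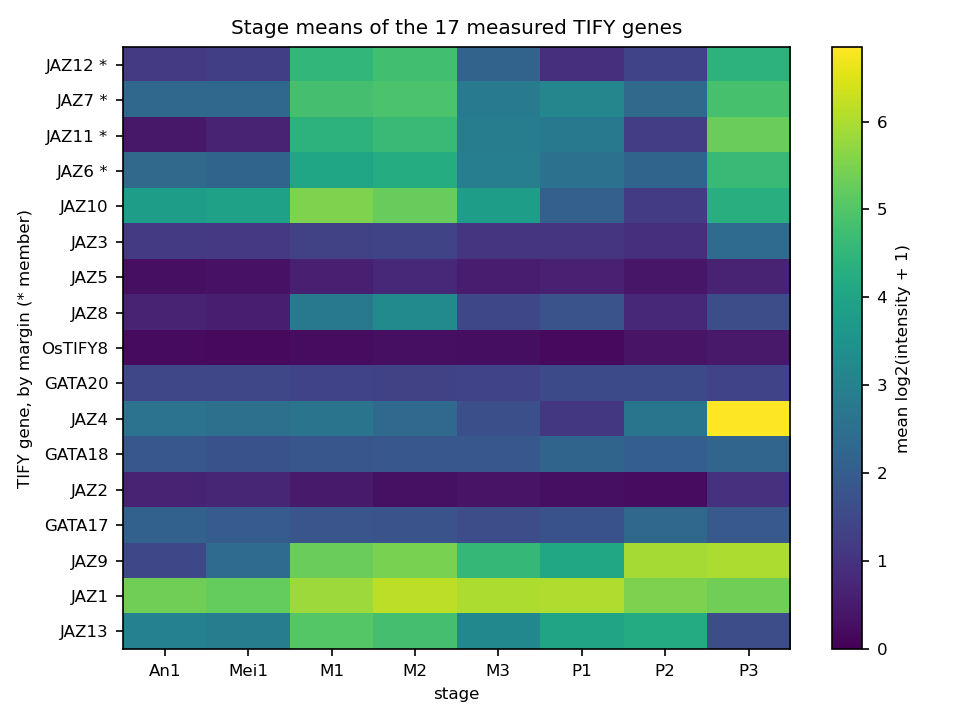
Heat map of the stage means of log2(intensity + 1) for the 17 measured TIFY genes (rows, ordered by margin, members marked with an asterisk) over the 8 stages (columns). The 4 members are bright in M1, M2 and P3 and darker elsewhere, JAZ9 stays bright from M1 on, JAZ4 is bright in P3, and JAZ13 is dark in P3.

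Genes for enzymes of jasmonate synthesis were set against the same contrast. Of 16 tested, 4 were called higher by limma in M1, M2 and P3 against the other stages and 0 lower, with a median difference of 0.22. The 4 were AOS1 (1.17 ± 0.15, SE), which encodes allene oxide synthase, aoc (1.17 ± 0.17), which encodes allene oxide cyclase, OPR1 (1.13 ± 0.09) and OPR13 (1.07 ± 0.13). The OPR genes encode oxophytodienoate reductases. None of these genes met the rule, and they differed in which high stage carried the difference.

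The AOS1 values were 10.7, 12.4, 8.44 and 9.26 in M1 and 16.3, 4.97 and 12.0 in M2, but 3.83, 3.87 and 6.87 in P3, against 1.44 to 6.79 on the low arrays. The aoc values ranged from 25.5 to 44.3 on the M1 and M2 arrays and were 8.35, 16.8 and 14.6 in P3, inside the range of 3.02 to 25.5 on the low arrays. For OPR13 the order was the other way, with 11.3, 23.9 and 31.3 in P3 and 6.72 to 10.9 on the M1 and M2 arrays. The OPR1 values came closest to the members' pattern, with 0.804 to 3.22 in M1 and M2, 2.72, 0.976 and 2.11 in P3, and 0.147 to 0.732 on the low arrays, which did not overlap.

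Gene lists were drawn up around the members' other roles, and the members among them were set aside. In calcium sensing, the class of CML27, 12 of 76 other genes were called higher and 0 lower, with a median difference of 0.23. These calls did not all follow the members' pattern: CML1 had stage means of 3.85 log2 units in P2 and 6.69 in P3 and at most 0.47 before, while the calcium-dependent kinase gene CPK13 had 4.93 in M1, 5.12 in M2 and 3.98 in P3 against 3.74 in M3. Among NAC genes, 1 of 7 others was called higher, NAC048, with 3.44 in M1, 3.63 in M2 and 2.28 in P3 against 2.40 in M3.

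Defence genes other than RBBI3.3 gave 1 higher and 1 lower of 13 tested. Dehydrin and late embryogenesis abundant genes, which protect cells during drying, gave 3 higher of 7, with a median of 0.81. Of these Dhn1 came nearest to the rule, with 4.75 in M1, 5.25 in M2 and 4.71 in P3 against 4.15 in An1, the highest low stage. RAB16B was high in M1 (4.33) and M2 (4.31) and was 0.54 in P3.

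The remaining transcription factor lists gave few calls. WRKY factors had 1 higher of 6, WRKY71, with 4.55 in M1, 4.31 in M2 and 2.12 in P3. The bHLH list had 1 higher of 12 and the heat shock factors 1 of 20. AP2/ERF (9 tested), MYB (9), bZIP (18) and C2H2 zinc finger (4) genes had 0 calls.

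Among the other lists, small heat shock proteins had 1 called higher of 18, large chaperones 0 of 13, U-box ligases 0 of 7, PP2C phosphatases 2 of 55, lipid transfer proteins 0 of 5 and glutathione transferases 0 of 6. Expansins and related genes had 4 higher and 1 lower of 22, aquaporins 3 higher and 2 lower of 24, sugar supply genes 3 higher and 1 lower of 22, and terpene and phenylpropanoid genes 1 higher and 1 lower of 14. In the sugar supply list the transporter gene OsSWEET4 missed the rule narrowly, with a margin of 0.84 and stage means of 5.09 in M1, 5.35 in M2, 7.17 in P3 and at most 4.25 elsewhere.

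Marker genes of anther cell types took other courses over the stages. The 12 tapetum genes, which mark the nurse layer of the anther wall, had a mean level of 1.17 log2 units in An1, 1.93 in M1, 2.93 in M2, 4.07 in M3, 3.86 in P1, 1.97 in P2 and 1.14 in P3, and 0 of 12 were called higher and 3 lower in the high stages. The 6 germ-line genes had a mean of 1.89 in An1, 2.01 in Mei1, 1.75 in M1, 0.98 in M2 and at most 0.91 later. Among them the germ-line Argonaute gene MEL1 was 5.55 in An1, 4.02 in M1 and 1.21 in M2. The 2 mature pollen genes had a mean of 5.10 in P2 and 5.09 in P3 and at most 0.58 before, while most members were low in P2. Of these 2, the pollen actin-depolymerizing factor gene ADF1 was 5.33 in P2 and 6.77 in P3 and at most 0.52 before. ADF1 thus rose from P2 to P3, where the mean of the 2 genes did not. The 6 green tissue genes had a mean of 1.89 in An1, 1.80 in Mei1, 2.22 in M1 and 1.89 in M2. Their mean was highest in M3, at 2.62, and was 2.50 in P1, 2.07 in P2 and 0.95 in P3. Other marker lists had 0 calls for the 6 germ-line genes, 0 for 9 genes of other floral organs and 0 for 22 cell cycle genes, and ADF1 was the 1 call of 2 mature pollen genes. The part of these cell types in the members' levels was not tested.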

How the data were processed

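Deposited was 1 linear intensity value for each probe set and array, without detection calls. In these deposited values the 75th percentile lies between 0.99999994 and 1 on all 26 arrays, so the authors had scaled every array to it. Arrays have no depth, and precision depends on how many there are. GCOS 1.3 is named, per the submitters' processing notes, without a step.

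Control probe sets (187) were left out, and log2(intensity + 1) was used. Genes were named from the array's platform annotation, updated through a RefSeq table of assembly ASM3414082v1 used for names, chromosomes and gene order. Of 57194 probe sets, 22436 name 1 gene, 95 several and 34663 none, and all 17905 single genes matched that table. For gene lists the probe set with the highest mean was taken.

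Stage means were fitted over the 26 arrays in limma 3.58.1 (R 4.3.3), and the moderated variance followed the intensity. A probe set was kept if any stage mean exceeded 0.300, the 40th percentile of pooled log2 data, which left 47799 (83.6%). Tests were two-sided, and p-values measure the spread between arrays of a stage. The limma script was tested on simulated data. The members, lists and tests were chosen with earlier results of these data known. Named are all members, the nearest non-members, list genes and neighbours described.

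Alternatives changed the pseudocount, normalization, filter, variance model, replicate block, arrays and rule. Tables used pandas 2.3.3 and numpy 2.4.6 under Python 3.11.15, and plots matplotlib 3.10.9. Promoter motif counts were not run, since no promoter sequences were used here.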

Additional observations from a re-analysis of the deposited data

Results flagged for a closer look

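The members were checked for single arrays far from the others in the stages with 4 arrays, M1 and M3, where 34 groups were examined and 3 stood out. The groups were the 16 members and the members' median in each of these stages. The check compares the gap between the most extreme array and its nearest neighbour with the range of the group, and chance alone marks about 1 group in 20.

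JAZ11 was 11.4 in M1 replicate 3, below 23.7, 26.3 and 24.9 on the other M1 arrays. MT1A was 6.40 in M1 replicate 1, above 1.93 to 2.32 on the others. LOC4332305 was 3.41 in M3 replicate 2, below 6.29 to 6.65 on the others. Stages with 3 arrays, M2 and P3 among them, are too small for this check, so the low members of M2 replicate 2 and the high salT and MT1A values of P3 replicate 1 are given in the results as values.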

How the results depend on the processing

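The number of members depended on the scale: a pseudocount of 4 gave 6 and one at the 20th percentile of all values (0.149) gave 50, while margins of 0.5 and 2 gave 82 and 1. Quantile normalization gave 17 members (14 among the 16), aligned medians 13 (10) and control scaling 12 (10). Leaving out 1 array at a time gave 11 to 20 members, 0 to 2 called between M1 and M2, 1 to 2 between M1 and P3, 1 to 4 between M2 and P3, 4 to 6 among the low stages, 53 to 67 list genes called higher or lower against 60 with all arrays, the 7 member genes on the lists included, and 8 TIFY genes each time. All 16 members kept a margin above 0 in each of these settings. Stage medians in place of stage means gave 12 members, of which 10 were among the 16. With the arrays M2 replicate 2 and P3 replicate 1 left out together, 2 members were called between M1 and M2, 3 between M1 and P3 and 8 between M2 and P3. Array weights gave 2 between M1 and P3 and 6 between M2 and P3, quantile normalization gave 3 between M2 and P3, and scaling on control probe sets gave 2. A pseudocount of 4 gave 0 between M1 and P3, where NAC4 was -0.95, 3 among the low stages and 31 list genes. The pseudocount at the 20th percentile gave 8 among the low stages and 100 list genes. Among the low stages, the calls of JAZ12 (0.64) and NAC4 (0.49) were lost with a pseudocount of 4, whose scale compresses differences at low intensity. No called difference of a named member and no margin changed direction, but differences that were not called did: the members' median was 0.19 between M1 and P3 and -0.13 with quantile normalization, -0.26 with aligned medians, -0.25 with control scaling and -0.14 without P3 replicate 1, and between M1 and M2 it was 0.23 and -0.06 with aligned medians.

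Over all probe sets, counts of calls moved with the pseudocount: from 405 to 153 and 1104 between M1 and M2, from 6105 to 2646 and 11181 between M1 and P3, from 5437 to 2499 and 9691 between M2 and P3, from 6606 to 2591 and 12751 among the low stages, and from 921 to 293 and 2289 for the high against the low stages. The share called higher moved with the scaling, from 68.4% to 37.1% with aligned medians between M1 and M2, from 52.7% to 33.7% between M1 and P3, and from 76.4% to 55.7% for the high against the low stages; scaling on control probe sets gave 56.5%, 33.3% and 63.9%, and 39.2% in place of 55.3% between M2 and P3. The median of all probe sets was 0.13 between M1 and P3 and -0.01 with aligned medians, where NAC4 was -1.68.

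Replicate numbers did not clearly pair the arrays. A correlation over 0.1 was found in 16 of 85 same-numbered pairs and in 40 of 210 differently numbered pairs. The median correlation was -0.01 and 0.005, and the highest 0.54 and 0.41. With the replicate number as a block, members called stayed at 0, 1 and 1 between the high stages and 5 among the low ones, where JAZ12 lost its call (1.16) and CML27 gained one (1.06).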
